A study of Drosophila melanogaster with 3 samples.

Results

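Chromatin bound by the zinc finger protein pad was mapped near the telomeres of Drosophila melanogaster. Whole adult females of unknown age were used, from a transgenic line that stably carries pad with GFP at its C terminus. Chromatin was sonicated to a size range of 200 to 800 and precipitated with an antibody against GFP. The 3 libraries were biological replicates of this single group, and a control alignment entered the authors' peak calling, so no wild type or treated flies stand against them. Which cells of the animal contributed a peak cannot be told apart in whole flies. A peak was called telomere-proximal where its summit lay within 300 kb of the telomeric end of 2L, 2R, 3L, 3R or X, or within the last 100 kb of chromosome 4. Of the 30000 rows in the authors' list for the pooled replicates, 422 met this rule. Of these, 87 were among the 6659 rows that passed the irreproducible discovery rate (IDR), a filter on how well peak ranks repeat between replicates. The 6659 IDR rows were the strongest rows of the pooled list, so an IDR member is a strong one. It need not rank alike in every replicate.

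Fly telomeres are not built by telomerase. They are extended by the retrotransposons HeT-A, TART and TAHRE, which attach head to tail at the chromosome end, and behind these arrays lie telomere-associated satellite repeats. A protein complex that includes HOAP and HP1a caps the end, and unique DNA with ordinary genes begins further inward. pad, also called poils au dos, restrains the genes achaete and scute during bristle development.

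The strongest telomere-proximal peaks on chromosome 4 sat in HeT-A, and their summit sequences are shown because they are copies of one another. Each is given 5′ to 3′, from the RefSeq copy of Release 6 of the fly genome (dm6). The chromosome 4 sequences are on the strand of the element. Capitals mark the word AGGGGAAA, which was picked out in earlier results of these data. The first sequence is chr4:1318955-1319105 on the minus strand, around the summit of the peak ranked 2 in the pooled list. The second is chr4:1306482-1306632 on the minus strand, around the summit of the peak ranked 9. The last is chrX:6863-7013 on the plus strand, a copy with the same word at which no peak was listed. It lies in no annotated transposable element, and its strand is the one that aligns with the others.
HeT-A peak ranked 2: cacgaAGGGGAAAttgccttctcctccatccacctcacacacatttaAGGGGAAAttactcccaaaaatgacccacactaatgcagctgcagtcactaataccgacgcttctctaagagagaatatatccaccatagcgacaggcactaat
HeT-A peak ranked 9: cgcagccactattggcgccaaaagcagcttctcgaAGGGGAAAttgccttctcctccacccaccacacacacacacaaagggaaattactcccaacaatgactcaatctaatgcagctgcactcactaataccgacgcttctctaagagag
X copy without a peak: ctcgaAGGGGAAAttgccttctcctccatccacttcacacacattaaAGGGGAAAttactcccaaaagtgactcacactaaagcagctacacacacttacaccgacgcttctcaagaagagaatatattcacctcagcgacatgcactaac
Over their aligned bases the peak ranked 2 and the peak ranked 9 were 90.8% identical, and the peak ranked 2 and the X copy were 88.5% identical.

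Another pair of summits came from a sequence duplicated within l(2)gl on 2L, a gene for a tumour suppressor that sets cell polarity. The windows are chr2L:16636-16736 and chr2L:19468-19568 on the plus strand, and capitals mark the longest run the windows share, 76 bases.
l(2)gl summit ranked 1954: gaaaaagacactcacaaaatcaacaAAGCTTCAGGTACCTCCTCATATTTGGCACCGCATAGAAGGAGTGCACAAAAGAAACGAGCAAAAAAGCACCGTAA
l(2)gl summit ranked 4741: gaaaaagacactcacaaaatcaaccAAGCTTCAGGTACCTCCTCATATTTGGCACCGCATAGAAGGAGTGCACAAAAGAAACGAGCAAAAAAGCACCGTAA
Both windows lie in introns and in no annotated exon. The word AGGGGAAA also stood at 2 unrelated summits in introns of heph, which encodes a polypyrimidine tract-binding protein, at chr3R:31938470-31938570 and chr3R:31944118-31944218 on the plus strand. There it is in capitals.
heph intron summit ranked 386: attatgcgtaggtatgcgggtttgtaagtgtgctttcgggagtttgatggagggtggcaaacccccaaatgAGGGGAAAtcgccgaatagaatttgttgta
heph intron summit ranked 1119: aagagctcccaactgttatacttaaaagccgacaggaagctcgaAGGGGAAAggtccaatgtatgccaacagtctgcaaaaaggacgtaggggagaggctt

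The peaks at the HeT-A sequences were the strongest of all telomere-proximal peaks, and 3 of them stood among the 10 strongest rows of the whole pooled list. Signal is the authors' own measure of peak strength, with a scaling that is not stated. The peak at chr2R:25285149-25286228 had its summit 1299 bp from the arm end and a signal of 97719. It ranked 1 in replicate 1, 2 in replicate 2 and 1 in replicate 3. The peak at chr4:1318232-1319718 had a signal of 79079.9 and its summit 29101 bp from the end. Its replicate ranks were 2, 4 and 2. The peak at chr4:1305777-1307113 had a signal of 34985 and ranked 6, 11 and 8 in the replicates. The remaining one, at chr2R:25279805-25280187 and 6939 bp from the end, had a signal of 6842 and ranked 60, 214 and 81. These 4 peaks held high ranks in every replicate. They were the strongest in a list pooled from the same replicates, so the ranks describe them and support nothing. The peak at chr2R:25279805-25280187 spread most, with a mean rank of 118 ± 83.5 (SD, n = 3). The next strongest telomere-proximal peak, in heph, had a signal of 4493. All 4 were classed as intergenic. The annotation used here places HeT-A under both chromosome 4 summits and no transposable element under those on 2R.

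All 4 of these peaks lay on related sequence in the same orientation. The bases up to 150 on each side of the summit ranked 1 were 89.1% identical over 294 aligned bases to those around the summit ranked 2, and 86.2% identical over 275 bases to those around the summit ranked 9. The chromosome 4 windows were 92.6% identical over 271 bases. The window of the peak ranked 111 was 81.0% to 81.4% identical to the other 3. On chromosome 4 the summits lay 1110 and 1193 bases from the 5′ end of their elements, which are 5799 and 5917 bases long. So the peaks sat at nearly the same place within the elements.

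The segment had further copies in the telomeric zones, and most carried no peak. A search with the summit ranked 2 and 150 bases on each side found 16 copies there with at least 150 aligned bases. An IDR peak overlapped 4 of them, and none of the other 12 overlapped a row of the pooled list or of any replicate list. X held 7 copies without a peak, at 81.0% to 89.0% identity, and chromosome 4 held 4 copies without one, at 78.5% to 87.7%. The last was on 2R, at 85.9% identity over 156 bases. The 4 copies with a peak had 81.3% to 100% identity, so the ranges of identity overlapped. The share of repeated words did not overlap. In the aligned stretches of the 4 copies with a peak, 6.77% to 48.0% of all 36-base words also occurred elsewhere in the genome, against 98.0% to 100% in the 12 copies without one. Over the whole peaks, which differ in extent from the aligned stretches, the shares were 34.4%, 44.7%, 29.6% and 52.3% for those ranked 1, 2, 9 and 111. How the authors' alignment treated reads that fit several places is not given in the sources used here, and the part of repeated sequence in these peaks was not tested. AGGGGAAA, read on both strands, stood in all 16 copies, at 1 to 3 places in each. Outside the zones the arms held 1 more copy, at chr3L:25229951-25230189, with 80.3% identity over 239 bases and 0% repeated words. It overlapped an IDR peak ranked 2741. The peak lists had no row on Y or on unplaced sequence, where 6 copies each were found.

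**Figure D1:**
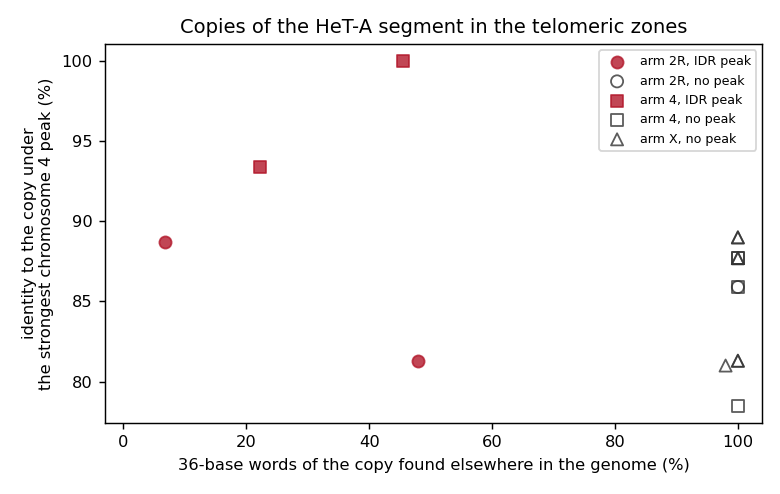
Each point is 1 of the 16 copies of the HeT-A segment in the telomeric zones, plotted by the percentage of its 36-base words found elsewhere in the genome (x axis) and its percentage identity to the copy under the strongest chromosome 4 peak (y axis). Filled points have an IDR peak and open points have none; the 4 filled points lie at 6.77% to 48.0% and the 12 open points at 98.0% to 100%.

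Weaker peaks also lay in HeT-A. The zones held 15 annotated HeT-A copies of at least 1500 bases, with 9 on chromosome 4, 5 on X and 1 on 2R. IDR summits lay in 4 of those on chromosome 4 and in none of those on X or 2R. Beside the strong pair, the peaks at chr4:1294937-1295195 and chr4:1278827-1278983 had signals of 565 and 296. Their replicate ranks were 2083, 3100 and 2020 for the first and 5043, 6785 and 4286 for the second. These summits lay towards the other end of the element, 103 and 476 bases from its annotated 3′ end. On X and 2R the HeT-A copies held 1 summit each that did not pass IDR, with signals of 147 and 143. Of the 7 summits in HeT-A on chromosome 4, 4 passed IDR, and the rest had signals of 61.5 to 87.8. The 2 TART-A copies of at least 1500 bases on chromosome 4 held no summit. A shorter TART-A copy there held a summit that did not pass IDR, with a signal of 61.7.

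Repeated sequence was more common in the telomere-proximal IDR rows than in other IDR rows. More than 20% of the 36-base words occurred elsewhere in 10 of 87 IDR members, or 11.5% (exact binomial 95% interval 5.65% to 20.1%), against 10 of 6572 other IDR rows, or 0.152% (0.0730% to 0.280%). Above 50% the counts were 5 of 87 IDR members and 0 of 6572 other IDR rows, for which the interval reaches 0.0561%. All 10 repeat-rich IDR members were found among the 10000 strongest rows of every replicate. IDR rows are the strongest of the list pooled from these replicates, so this only describes them. By place, 4 were in HeT-A on chromosome 4, 4 were in l(2)gl and 2 were those near the end of 2R. In l(2)gl the pair of summits at chr2L:16561-16961 had signals of 804 and 658, and the pair at chr2L:19273-19965 had 362 and 276. The first summits of these pairs were 96.3% identical over 150 bases on each side. The rows of each pair overlap. Overlapping rows and copies of the same sequence are not independent, and the intervals, which count rows, do not cover this. With 1 row per merged region, 70 of the IDR members remained. The summit itself lay in an annotated transposable element in 4 of 87 IDR members, or 4.60%, against 8 of 6572 other IDR rows, or 0.122%.

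The ends of the arms differed in how far repeats reached and in where peaks began. In the last 10 kb, 51.2% to 100% of sampled 36-base positions were repeated elsewhere on every arm, against 12.1% over the rest of the arms. On X this share was 99.7% between 10 and 50 kb and 93.5% between 50 and 100 kb. The nearest row to the X end lay 96599 bp away, at chrX:96355-96844, and was weak, with a signal of 74.0 and no match in replicates 2 and 3. The nearest IDR summit on X was 175696 bp from the end, in an intron of tyn. On 3L no row lay within 10 kb of the end, where 100% of positions were repeated, and the nearest was 22057 bp away, with a signal of 139. Its nearest IDR summit was at 40492 bp, in an intergenic stretch, with a signal of 659. On 2L the first row lay at 5701 bp with a signal of 138, and the first IDR summit was the l(2)gl summit at 16685 bp. On 3R the first row lay at 8081 bp with a signal of 57.7. The first IDR summit on 3R, with a signal of 336, was at 10731 bp, upstream of the start of Map205, which encodes a microtubule-associated protein. On 2R and chromosome 4 the row nearest the end was thus also the strongest of its zone, and on 2L, 3L, 3R and X it had not passed IDR.

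**Figure D2:**
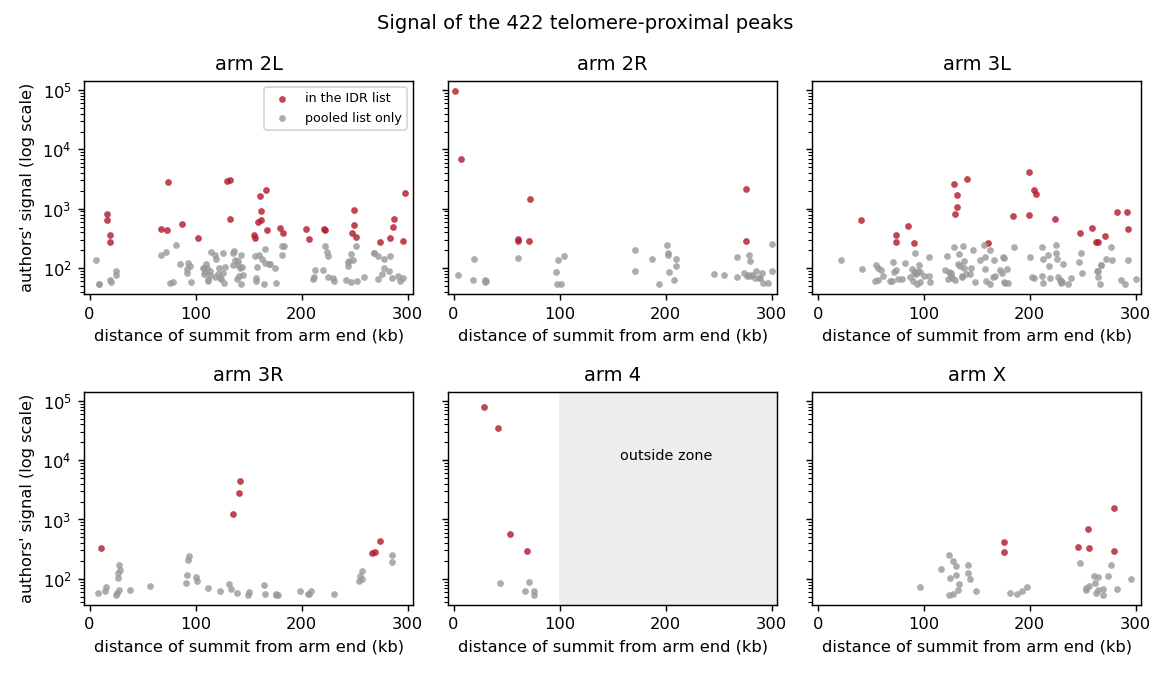
Every telomere-proximal row is plotted by the distance of its summit from the arm end in kb (x axis) and by the authors' signal on a log scale (y axis), with IDR rows in red and the other rows in grey. On 2R and chromosome 4 the highest points, at 97719 and 79079.9, lie nearest the end, while X has no point within 96 kb.

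Counted over all 6 arms, the density of peaks in the zones did not differ from that of the rest beyond the spread between replicates, and its direction depended on the width of the zone. Among the strongest 6659 rows of each replicate list, the zones held 76, 88 and 86 rows. Relative to the rest of the same arms, the density per Mb was 0.954, 1.11 and 1.08 times as high in replicates 1, 2 and 3. The mean was 1.05 ± 0.0818 (SD, n = 3), higher in 2 of 3 replicates, with p = 0.50 in an exact two-sided sign-flip permutation test, in which 3 replicates cannot go below 0.25. With zones of 100 kb on every arm the mean ratio turned to 0.692. With zones of 600 kb, and 200 kb on chromosome 4, it was 1.28, and among the strongest 1000 rows it was 1.57. The zones made up 1.20% of the sequence of the arms and held 1.31% of the IDR rows (exact binomial 95% interval 1.05% to 1.61%). Likewise, 87 of 422 members, or 20.6% (16.9% to 24.8%), passed IDR, against 22.2% of all pooled rows. The last 10 kb held 33.3 IDR rows per Mb, and the bins from 10 to 50, 50 to 100, 100 to 200 and 200 to 300 kb held 33.3, 46.7, 56.0 and 70.0. The first value rests on 2 rows, both of them the 2R peaks on sequence related to HeT-A. The bins cover 0.06, 0.24, 0.3, 0.5 and 0.5 Mb. As counts and not densities, they held 2, 8, 14, 28 and 35 IDR rows. Start sites in them numbered 1, 16, 37, 86 and 126.

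That average joined arms that differed. The mean density ratio over replicates was 2.47 ± 0.348 on 2L, 1.74 ± 0.115 on 3L and 1.63 ± 0.233 on chromosome 4 (SD, n = 3 each). It was 0.510 ± 0.0673 on 2R, 0.531 ± 0.0830 on 3R and 0.357 ± 0.0330 on X. All 3 replicates lay above 1 on each of the first 3 arms and below 1 on each of the others. No test was made for single arms. The chromosome 4 value rests on 3 or 4 rows in the zone of each replicate. Annotated start sites differed in the same direction on every arm but chromosome 4, whose zone held none, against 147 per Mb in the rest of that arm. The 2L zone held 317 start sites per Mb against 194 in the rest of 2L, and the 3L zone held 260.0 against 161. The X zone held 96.7 start sites per Mb against 167, the 2R zone 100 against 194 and the 3R zone 113 against 171. Per 100 start sites, IDR rows numbered 37.9 in the 2L zone against 23.7 in the rest of the arm, 32.1 against 27.8 on 3L, 26.7 against 25.9 on 2R, 20.6 against 28.5 on 3R and 24.1 against 37.0 on X. The next 300 kb inward held 107 IDR rows per Mb on 2L and 86.7 on 3L, against 120 and 83.3 in their zones. On 2R, 3R and X the next 300 kb held 83.3, 70.0 and 43.3, against 26.7, 23.3 and 23.3 in their zones. The rest of these arms, with that stretch included, held 50.2, 48.8 and 61.7. On chromosome 4 the next 100 kb held 1 IDR row, against 4 in its zone.

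**Figure D3:**
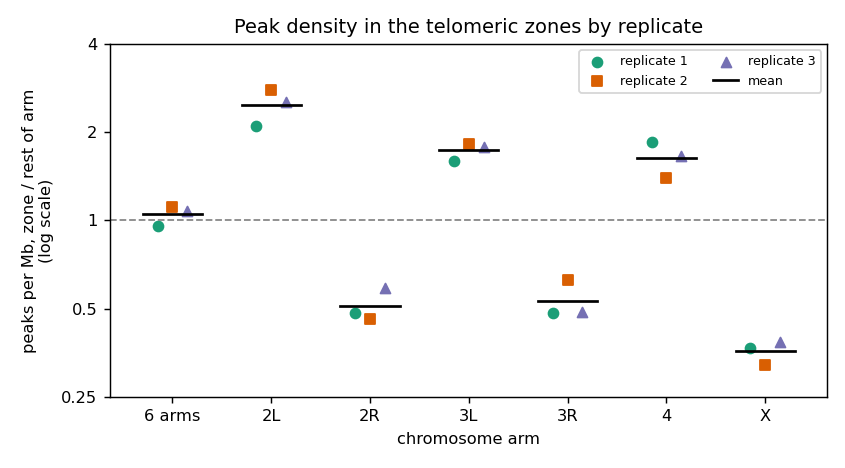
Density of peaks per Mb in the telomeric zone divided by that in the rest of the arm (y axis, log scale), for the 6 arms together and each arm (x axis), among the strongest 6659 rows of each replicate; symbols are replicates, bars are means and the dashed line marks equal density. Means are 2.47 on 2L and 1.74 on 3L, against 0.357 on X.

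The share of IDR members at start sites depended on the width of the zone. The summit was at most 250 bp from a start site in 45 of 87 IDR members, or 51.7% (exact binomial 95% interval 40.8% to 62.6%), against 49.0% of all IDR rows. With zones of 100 kb on every arm it was 20.8%. Among members that did not pass IDR it was 77 of 335, or 23%. Introns held 20 of 87 IDR members, or 23% (14.6% to 33.2%), against 33.3% of other IDR rows. Of 133 protein-coding genes with a start site in a zone, 46 had an IDR summit within 250 bp of a start site, or 34.6% (26.6% to 43.3%), against 24.4% of all 13945 coding genes. Genes that share a summit are not independent. These 46 genes shared 37 summits, since 17 of them lay at 8 summits near more than 1 gene. By zone, 20 of 45 genes were bound on 2L, 14 of 42 on 3L, 5 of 14 on 3R, 5 of 13 on X and 2 of 19 on 2R.

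Among enzymes and signalling genes, the strongest promoter peaks were on 2L and 3L. The promoter of Gs1, which encodes a glutamine synthetase, had a signal of 3073 and replicate ranks of 817, 261 and 432. Pdk1, a kinase that activates Akt, had a promoter signal of 3201 and ranks of 627, 244 and 538. The ranks of both peaks differed by more than 2-fold between replicates, with the lowest number in replicate 2. Gk1, a glycerol kinase, had 1745 at a summit that it shared with CG13876, and NitFhit had 2051. Pi3K21B, the regulatory subunit of phosphoinositide 3-kinase, had 1872 and ranks of 325, 1061 and 685. It was the outermost row inside the 2L zone, 297844 bp from the end. CG3164 had 2942, with ranks of 1038, 309 and 284. The start of galectin shared its peak of 2800.4 with that of the antisense RNA asRNA:CR44987, so the 2 genes cannot be told apart.

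Other summits of the 2L, 3L and X zones lay in or near the following genes. In rno, a PHD finger protein that acts in EGF receptor signalling, the intron summit had a signal of 4164, with replicate ranks of 170, 284 and 178. The intergenic summit near lncRNA:CR45400 on 3L had 2593 and ranks of 639, 408 and 413. spen, a corepressor of broad function, had 8 IDR summits along the gene, with signals between 398 and 2060.1. kis, a chromatin remodeller, had 430.5 at its strongest promoter. E(bx), a subunit of the NURF remodelling complex, had 389. On X, the strongest summit lay in the 5′ UTR of ewg, a transcription factor gene, with 1556. The next on X lay in a coding exon of CG42376 with 698 and in the intron of tyn with 413. The promoter of G9a, a histone H3 lysine 9 methyltransferase gene, shared a summit of 342 with CG3038.

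On 2R the bound coding genes were zip and Kr. The promoter of zip, which encodes the heavy chain of nonmuscle myosin II, had a signal of 2152 and replicate ranks of 1126, 416 and 879. At Kr, a gap gene transcription factor, the promoter summit reached 290.0, below the summit of 1461 that lay further upstream in an intron of CG9380, which ranked 1204, 803 and 1121. In heph, the 3 intron summits on 3R had signals of 4493, 2803 and 1243. The first 2 fell within 1 replicate peak, ranked 248, 219 and 154, and the last ranked 1057, 1349 and 923. The strongest promoter signals on 3R were 427, at the start shared by CG1971 and CG42233, and 336 at Map205. The strongest heph summit had an offset of -256 bp from an annotated heph start, just beyond the 250 bp used for promoters, so its class depends on that distance.

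**Figure D4:**
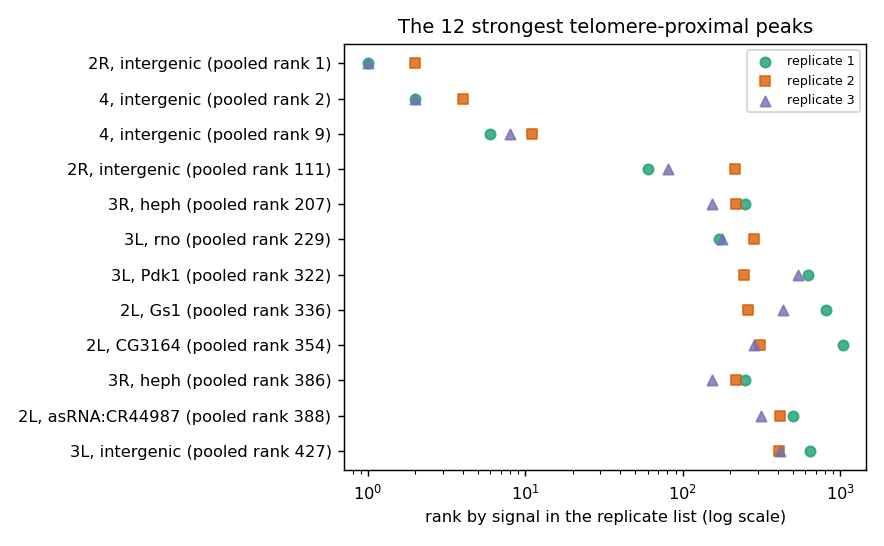
Rank by signal in each replicate list (x axis, log scale) of the 12 telomere-proximal peaks with the highest pooled signal (y axis, from the strongest down). The upper 3 rows stay at ranks 1 to 11 in all replicates, and 2 rows in heph share 1 replicate peak and so have equal ranks.

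The IDR rows were the strongest rows of a pooled list made from these same replicates. The counts that follow therefore describe the members and support nothing. All 87 were found in all 3 replicate lists, with an overlap of at least 50% of either peak. Among the 10000 strongest rows of every replicate, 83 of 87 were found, or 95.4% (exact binomial 95% interval 88.6% to 98.7%), against 90.8% of all IDR rows. The 4 that were missed were missed in replicate 3, and of members that did not pass IDR 25 of 335 were found. The median SD of log2 rank over replicates was 0.41 for IDR members and 0.44 for other IDR rows. The median signal was 489 in IDR members and 498 in other IDR rows of the same list.

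Of the 5 short words counted at the summits, AGGGGAAA was the most common, and 4 of its 8 summits were copies of the HeT-A segment. Within 50 bases on each side of the summit, on both strands, it stood at 8 of 87 IDR members, or 9.20%, against 2.86% of other IDR rows and 1.30% of all pooled rows. Without the 4 peaks on related HeT-A sequence it stood at 4 of 83, or 4.82%, beside 3 of 83, or 3.61%, for each of CAACACTG, the GAGA word and the core AGGNGGC, and 1 of 83 for the DRE word. The 4 summits with AGGGGAAA were the 2 heph summits printed above and 2 summits in the kis region. CAACACTG, also known from earlier results of these data, stood at 3 of 87 IDR members, or 3.45%, against 2.91% of other IDR rows, at Pi3K21B, zip and an intergenic summit on 3L. The GAGA word GAGAGAG was at 3.45% against 5.89%, the core AGGNGGC at 3.45% against 4.0%, and the DRE word TATCGATA at 1.15% against 2.22%. The last was a single summit, at the start of Creld. Among all pooled rows the shares were 1.01% for CAACACTG, 3.34% for GAGAGAG, 4.60% for AGGNGGC and 1.33% for TATCGATA. No word contains another, and a match describes letters, not a binding site.

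Genes for proteins that act at telomeres are given as background to the zones. Of 25 such genes matched from a list of 26, 14 were bound at a start site, beside the 24.4% of all coding genes. The 8 strongest were peo at 5908, ver at 2440.0, eff at 1673, pont at 1034, pzg at 984, Irbp at 939, Gas41 at 785 and the HP1a gene at 779. peo encodes a homologue of AKTIP and ver a protein of the terminin complex. The HOAP gene cav had 377, and HipHop, moi and tea, further genes of capping proteins, had no such summit.

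The edge of the zones was set by distance alone, and the rows next to it that had passed IDR were Pi3K21B inside the edge on 2L and the first row beyond it on X. The last rows inside had signals of 54.3 to 250.4 outside 2L and of 1872 on 2L. The first rows beyond had signals of 61.0 to 276, the highest on X.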

How the data were processed

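Peak lists on dm6 and dm3 from 3 biological replicates of 1 group were used; per the file headers and the labels the authors called 30000 peaks and background regions for every replicate and for the pool, with a control alignment, and filtered them by IDR. Aligner and peak caller: not given in the sources used here. The signal deposited by the authors has no stated scaling; it served to rank and describe rows within the pooled list, and replicates were compared by rank only. The −log10 q-value deposited by the authors was not used to select rows. The summit offset within each peak, also the authors', gave the summit positions. Read depth is unknown, so no interval covers it. The exact binomial 95% intervals cover the counting of rows only, and rows that overlap are not independent.

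Arm ends were those of Release 6, with genes and transposable elements of Ensembl release 115 on the same assembly release, and sequence from RefSeq. Coordinates are 1-based. Overlap needed 50% of either peak. A word of 36 bases counted as repeated when it occurred on either strand more than once in the assembly, at each position of a peak and at 1 in 10 positions of the zones. Copies were sought with blastn 2.17.0 at an e-value up to 1e-20. The work ran in Python 3.11.15 with pandas 2.3.3, scipy 1.17.1, numpy 2.4.6 and, for figures, matplotlib 3.10.9. The steps were tested on simulated data. P-values cover only the spread between these replicates.

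Named members were the 12 strongest IDR members, the 3 strongest and the nearest to the end in each zone, those in transposable elements among the 20 strongest, those at the zone edges, the 3 strongest bound genes per zone and up to 8 bound telomere protein genes. spen, kis, E(bx), Creld, the X copy and the genes cav, HipHop, moi and tea were named after their values were seen. Members, lists, motifs and tests were chosen with earlier results of these data known. The search for HeT-A copies and the motif count without the 4 peaks on them were added after seeing the data. Alternatives changed the zone, the number of rows, the start-site distance, the overlap rule, the word length, the window and the replicates.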

Additional observations from a re-analysis of the deposited data

How the results depend on the processing

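No paired analysis was possible because the series holds 1 group. The mean density ratio of 1.05 turned to 0.692 with zones of 100 kb on every arm, where p = 0.25 in the exact sign-flip permutation test, the smallest that 3 replicates allow; it was 1.57 among the strongest 1000 rows and 1.02 to 1.09 with each replicate left out. Because 3 replicates cannot bring this sign-flip permutation test below 0.25, it cannot decide for any density ratio. With zones of 100 kb the zones held 0.360% of IDR rows, 20.8% of IDR members were at start sites and 5 coding genes were bound. With zones of 600 kb, and 200 kb on chromosome 4, the zones held 3.08% of IDR rows and 107 bound coding genes. The mean density ratio was then 1.28. In the main zones it was 1.21 over all rows and 1.11 per start site. The strongest 1000 rows had 2.10% in the zones, and 9.72% of members were among the strongest 3000. With 100 bp in place of 250 bp, 33.3% of IDR members were at start sites and 29 genes were bound; 1000 bp gave 71.3% at start sites. The share found in all replicates was 62.1% when 50% of both peaks had to overlap, 60.9% among the top 5000, 100% in the whole list and 95.4% to 100% with a replicate left out. The IDR list was not made anew without a replicate. Instead, its rows were kept if found among the 10000 strongest of each remaining replicate. This kept 83 to 87 of the 87 IDR members, which are 19.7% to 20.6% of all 422 members. Of the kept IDR rows 1.32% to 1.39% lay in the zones, and 50.6% to 51.7% of kept members were at start sites. The pooled list still held the replicate left out, and the share of members kept could only stay or fall. TATCGATA stood at 6.90% of IDR members with 100 bases on each side. Apart from the construction of these settings, the cause of the changes was not tested. Depth is unknown, and the treatment of reads that fit several places is not given. Rows missing from repeated sequence may therefore not be read as absence of binding.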
